A study of Mus musculus with 12 samples.

Results

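Macrophages, monocytes and granulocytes are the myeloid cells of the spleen, and 38 genes that mark them were followed here in preparations of splenic B cells from mice. The 38 genes were chosen by name as myeloid markers, and they were put together with earlier readouts of these same arrays known, in which such markers stood higher in knockout cells. Their knockout changes are therefore a description of these arrays and no independent evidence of a direction. Of the 38 genes, 36 were paired with a probe, out of 20018 genes named in the whole series, and no value is given for Cd68 and Clec7a, whose accessions were not paired with a probe. The 36 genes had 44 probes, and the brightest probe stood for each gene.

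The arrays hold 4 groups of 3 replicates each. Control mice carried B1-8hi, a knock-in immunoglobulin heavy chain whose antibodies bind the hapten NP, together with floxed Sub1 alleles (Sub1fl/fl). Knockout mice carried the same alleles and Mb1-Cre, a recombinase inserted into the Cd79a locus and active in the B lineage. Sub1 encodes PC4, a chromatin protein and transcriptional coactivator, and the series asks about its function in B cells. Resting cells were labelled naive and had received no differentiation stimulus. Stimulated cells were taken 72 h after NP-ficoll, CD40 ligand and the cytokines IL-5, IL-4 and IL-2 were added. By its label every knockout sample carries Cre in the Cd79a locus together with the floxed Sub1 alleles, so their effects cannot be told apart. How the B cells were isolated, the age of the mice and whether replicates came from separate animals are not given in the sources used here. The p-values therefore cover a spread between samples that need not be one between animals. In the control groups Xist sets replicate 1 apart (values below), so that spread is not technical alone. In the knockout groups it could be. Because RNA was measured in bulk, fewer cells of a type and less RNA per cell cannot be told apart.

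In the spleen, red pulp macrophages engulf aged red cells and marginal zone macrophages trap particles from the blood. Macrophages recognise their targets through complement, Fc receptors and scavenger receptors. C1q binds antibody complexes and dying cells. Activating Fc receptors pass their signal through the adaptor FcR gamma, and DAP12 is an adaptor of many myeloid and NK cell receptors. CSF1 receptor signalling keeps macrophages alive, and the transcription factor PU.1, which B cells also express at a lower level, switches on many of these genes. Neutrophils store the S100A8 and S100A9 proteins, and eosinophils store ribonucleases of the eosinophil-associated family. Of the 36 genes, 7 are also known from B cells or B cell subsets (Cybb, Mpeg1, Lgals3, Cst3, Itgam, Itgax and Apoe).

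The promoters of 28 of the 36 genes with a probe were found in RefSeq's mouse table (build GRCm38.p6), as 31 windows of 300 bases that run from 250 before to 50 after a gene's start. Of these 5 are printed, 5' to 3' on the gene's strand. They are all windows that hold the PU.1 core letters, printed to show how these letters sit, and are not a sample of the 31. Windows without these letters, such as those of Mpeg1, Fcer1g, Ccl6, Ear2 and Itgax, are not printed. Capitals mark GAGGAA, or TTCCTC where it lies on the other strand. The genes are C1qb (chr4:136886151-136886450, minus strand), C1qc (chr4:136892865-136893164, minus strand), Tbxas1 (chr6:38918736-38919035, plus strand), Fcgr4 (chr1:171018676-171018975, plus strand) and S100a8 (chr3:90668821-90669120, plus strand).
C1qb: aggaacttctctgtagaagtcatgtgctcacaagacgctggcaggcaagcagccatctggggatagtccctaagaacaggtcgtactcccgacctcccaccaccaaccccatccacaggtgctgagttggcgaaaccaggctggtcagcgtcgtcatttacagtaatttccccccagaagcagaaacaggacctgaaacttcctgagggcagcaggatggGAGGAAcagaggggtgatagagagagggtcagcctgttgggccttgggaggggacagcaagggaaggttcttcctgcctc
C1qc: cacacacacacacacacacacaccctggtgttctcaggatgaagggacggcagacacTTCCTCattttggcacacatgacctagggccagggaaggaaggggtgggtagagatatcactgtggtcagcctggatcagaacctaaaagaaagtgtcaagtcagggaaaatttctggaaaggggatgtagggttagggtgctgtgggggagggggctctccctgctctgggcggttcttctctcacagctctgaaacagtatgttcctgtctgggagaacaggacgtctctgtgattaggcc
Tbxas1: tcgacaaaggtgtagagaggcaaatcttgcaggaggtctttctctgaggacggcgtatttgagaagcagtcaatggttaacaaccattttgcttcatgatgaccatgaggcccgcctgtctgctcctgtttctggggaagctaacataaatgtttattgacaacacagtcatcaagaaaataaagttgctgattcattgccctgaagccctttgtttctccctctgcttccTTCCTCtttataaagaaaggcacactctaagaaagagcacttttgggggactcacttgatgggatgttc
Fcgr4: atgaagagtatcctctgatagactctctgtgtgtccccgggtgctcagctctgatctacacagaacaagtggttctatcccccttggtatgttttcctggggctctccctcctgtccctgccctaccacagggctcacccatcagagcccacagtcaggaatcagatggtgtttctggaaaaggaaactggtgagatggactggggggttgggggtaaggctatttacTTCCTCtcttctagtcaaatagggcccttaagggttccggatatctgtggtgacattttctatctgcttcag
S100a8: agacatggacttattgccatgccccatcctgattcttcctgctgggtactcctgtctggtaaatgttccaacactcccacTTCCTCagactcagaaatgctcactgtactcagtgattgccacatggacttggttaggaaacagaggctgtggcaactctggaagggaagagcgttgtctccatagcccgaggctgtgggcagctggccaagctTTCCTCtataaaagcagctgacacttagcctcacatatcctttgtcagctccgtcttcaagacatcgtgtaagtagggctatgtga

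GAGGAA was searched on both strands and was present in 20 of the 31 windows, or 64.5%, against 28.3% of 32851 promoter windows of the same length. The longer string GAGGAAGT, which contains GAGGAA, was present in 9.68% of the members' windows, those of C1qc, Fcgr4 and S100a8, against 3.2% of all windows. The palindrome TTGCGCAA, a string that C/EBP factors bind, was in none of the members' windows and in 0.183% of all windows. These counts describe letters in the windows and not binding, and some windows belong to the same gene and overlap.

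On every array a level is the log2 of the probe's Cy3 intensity relative to that array's 75th percentile, so 0 is the level of a probe at that percentile. A probe counted as measured on an array where the scanner software called it well above background. Between 24.3% and 76.8% of spots were well above background per array, the lowest on control stimulated replicate 2, and no spot was saturated. The number of arrays limits the precision. Slide 1 held replicates 1 and 2 of every group and slide 2 held replicate 3, and changes within each slide are given below. On slide 1 the control arrays lay in row 1 and the knockout arrays in row 2, so array row and genotype cannot be told apart there, while slide 2 holds a single row. Xist read -4.42 and -3.91 on the 2 arrays of control replicate 1 and 0.09 to 1.77 on the other 10. The targeted gene Sub1 had a change of -0.38 (adjusted p = 0.268) in resting and of -1.21 (adjusted p = 0.0113) in stimulated knockout cells. Its mean level was 6.03 in resting control and 5.65 in resting knockout cells, and 8.05 and 6.84 after stimulation, so the probe stayed bright in the groups labelled knockout and the resting difference did not pass the test. Whether the probe lies in the deleted part is not given. All 15 B cell markers examined were well above background on all resting arrays, and 13 to 15 of them on stimulated arrays.

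The myeloid markers were measurable in these B cell preparations. In resting control cells 31 of the 36 genes were well above background on all 3 arrays, and in resting knockout cells 31 were. After stimulation only 9 remained above background on all 3 control arrays, against 30 on all 3 knockout arrays. Counted per array, control stimulated cells showed 15, 10 and 27 of the genes on replicates 1, 2 and 3, and the other 9 arrays showed 31 to 35. The 2 lowest counts were on the 2 arrays with the smallest share of all spots above background (36.6% and 24.3%), and control stimulated replicate 3, with 60.1% of spots, still lay below every other group. Knockout stimulated replicate 2, with 42.6% of spots, showed 31. What part the share of bright spots has in these counts was not tested. The 9 genes above background in every group were Mpeg1, Csf1r, Fcer1g, Apoe, Lgals3, Cst3, Tbxas1, Itgam and Sirpa.

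**Figure D1:**
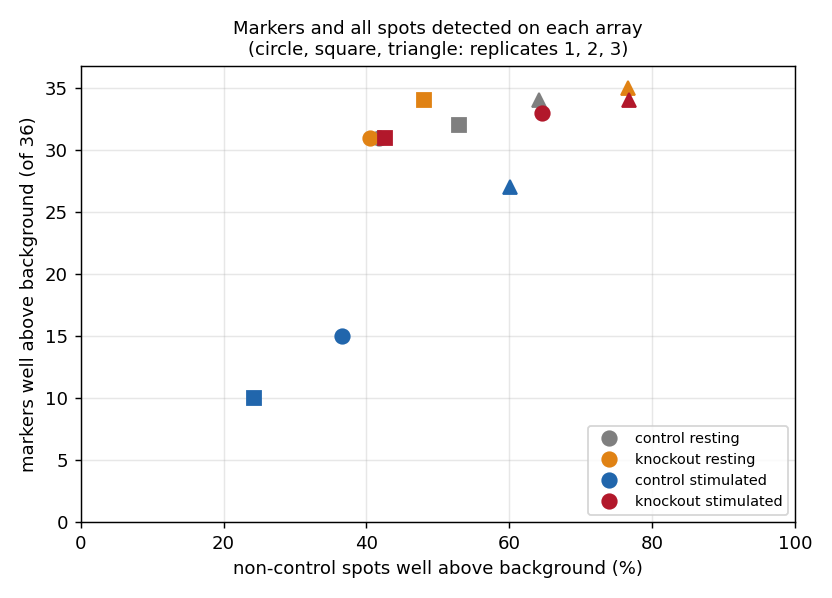
Number of the 36 myeloid markers well above background on each array (y axis) against the percentage of all non-control spots well above background on that array (x axis), coloured by group with a shape per replicate. The 3 control stimulated arrays sit at 15, 10 and 27 markers, below the 31 to 35 of the other 9 arrays; the point of control resting replicate 1 (41.8%, 31 markers) lies behind that of knockout stimulated replicate 2.

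Of the 36 genes, 32 were detected in this way throughout the 3 arrays of some group and were tested, together with 22953 features over the whole array. Cd14 passed this filter only through resting knockout cells and Vsig4 only through resting control cells, so a count over the 32 is not a count over all members. Fcgr1, Msr1, Mertk and Timd4 were not tested. A gene is called where the adjusted p of the fit over all features (limma, Benjamini-Hochberg) is under 0.05.

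In stimulated cells the markers stood higher in the knockout. Of the 32 tested, 18 were called higher and 0 lower, where 1.21% of all features were called higher and 2.26% lower (3.46% in either direction). Among the 18 were the 3 C1q chains, the macrophage surface gene Adgre1, Mpeg1, Aif1 and the adaptors Fcer1g and Tyrobp. The receptors Fcgr4 and Axl, the secreted protein Cd5l and the integrin Itgax were also among them. The others were the enzymes Tgm2 and Tbxas1, the lipid carrier Apoe, the chemokine Ccl6 and the ribonucleases Ear2 and Rnase2a. The median change of the 32 was 2.23 on the log2 scale, against -0.02 over all features, and it was 2.57 within slide 1 and 1.69 within slide 2. On all control stimulated arrays 6 of the 32 lay below background, and with 5 of them set at their lower bounds the median was 1.94. The sixth, Cd14, allows no bound and kept its value. A positive change was seen in 28 of the 32 and in 49% of all features. For 21 genes all 3 knockout arrays lay above all 3 control arrays and for none below, where 11% of features lay above and 14% below. The other 11 overlapped. Among the 25 tested genes not also known from B cells 15 were called higher, and among the 9 above background in every group 4 were.

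These calls rest on a spread estimated over all 4 groups. A fit on the 6 stimulated arrays alone called 0 of the 32, with 22 at an unadjusted p under 0.05, and it called 0 of all features. The count was 10 without knockout stimulated replicate 2, 8 without both arrays of control replicate 1 (which differ from the others in Xist) and 2 on slide 1 alone. The calls of 10 genes held with any single array left out, while those of Adgre1, Tyrobp, Aif1, Apoe, Rnase2a, Fcgr4, Axl and Cd5l ended in at least 1 case. With the replicate number as a block 18 were called higher.

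In resting cells 1 marker was called higher in the knockout, Tbxas1, and 0 lower, where 0.00871% of all features were called higher and 0.00436% lower (0.0131% in either direction). By an unadjusted p under 0.05, 20 of the 32 passed. The median change of the 32 was 1.35, against -0.21 over all features, with 1.21 within slide 1 and 1.37 within slide 2. A positive change was seen in 28 of the 32 and in 37.8% of all features. For 25 genes all knockout arrays lay above all control arrays, where 9.9% of features did. Cybb was the single gene whose knockout arrays all lay below the control arrays, where 26.8% of features did, and 6 genes overlapped. The median change of all features depends on the scaling in this comparison: it was -0.82 with arrays scaled on their median and 0.14 with the percentile taken over spots detected on all arrays, and the members' median was 0.74 and 1.70 under these settings. The same arrays serve in the stimulation comparisons below, so these comparisons share samples.

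**Figure D2:**
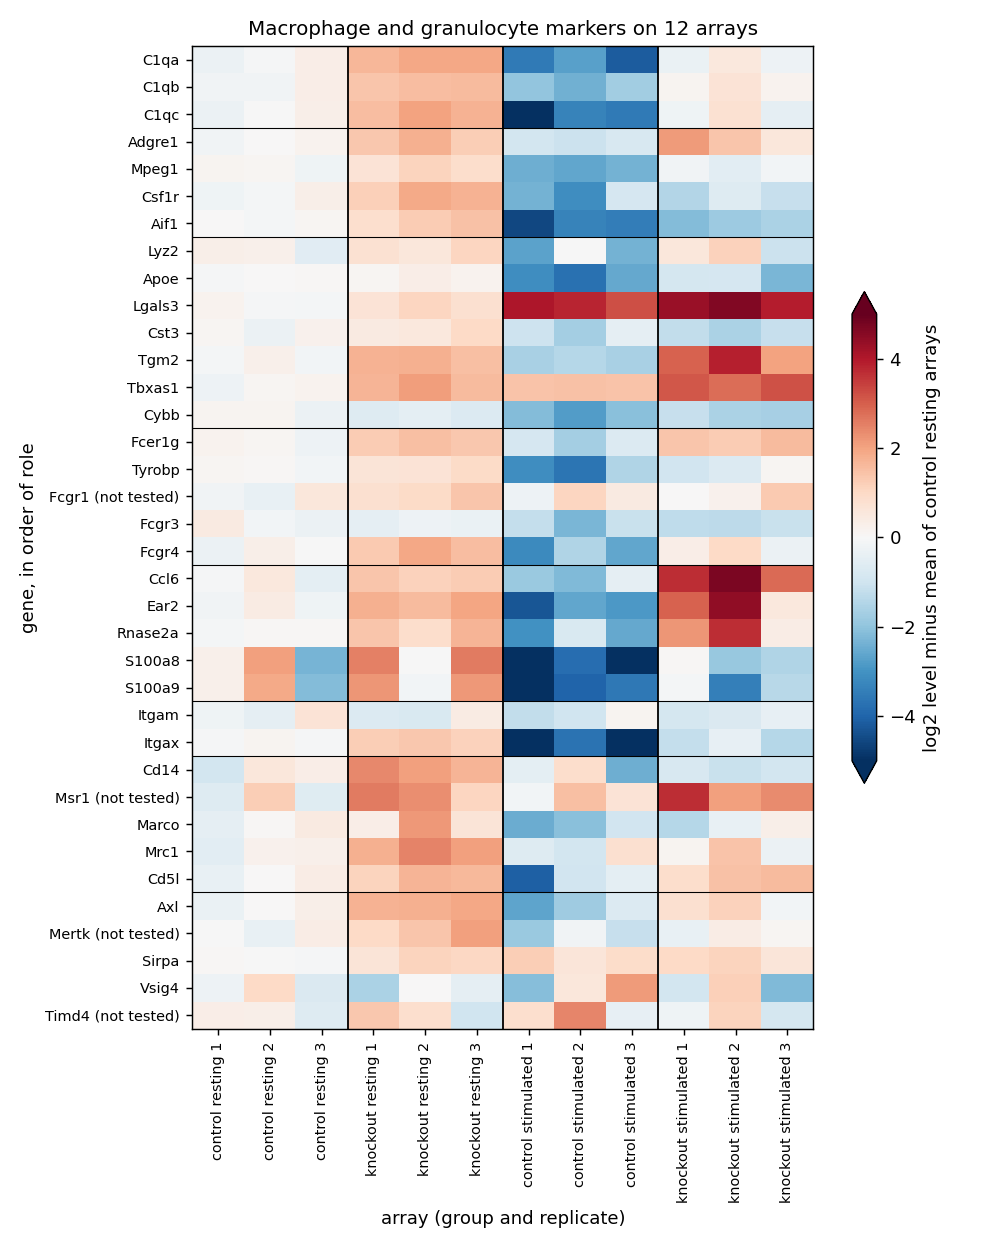
Levels of the 36 markers (rows, in order of role) on the 12 arrays (columns), each drawn as the log2 level minus the gene's mean over the 3 control resting arrays; colours stop at 5 in either direction. Most rows are red in the knockout resting arrays and blue in the control stimulated arrays, and the knockout stimulated arrays lie between these or above both, as for Tgm2 and Ccl6.

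**Figure D3:**
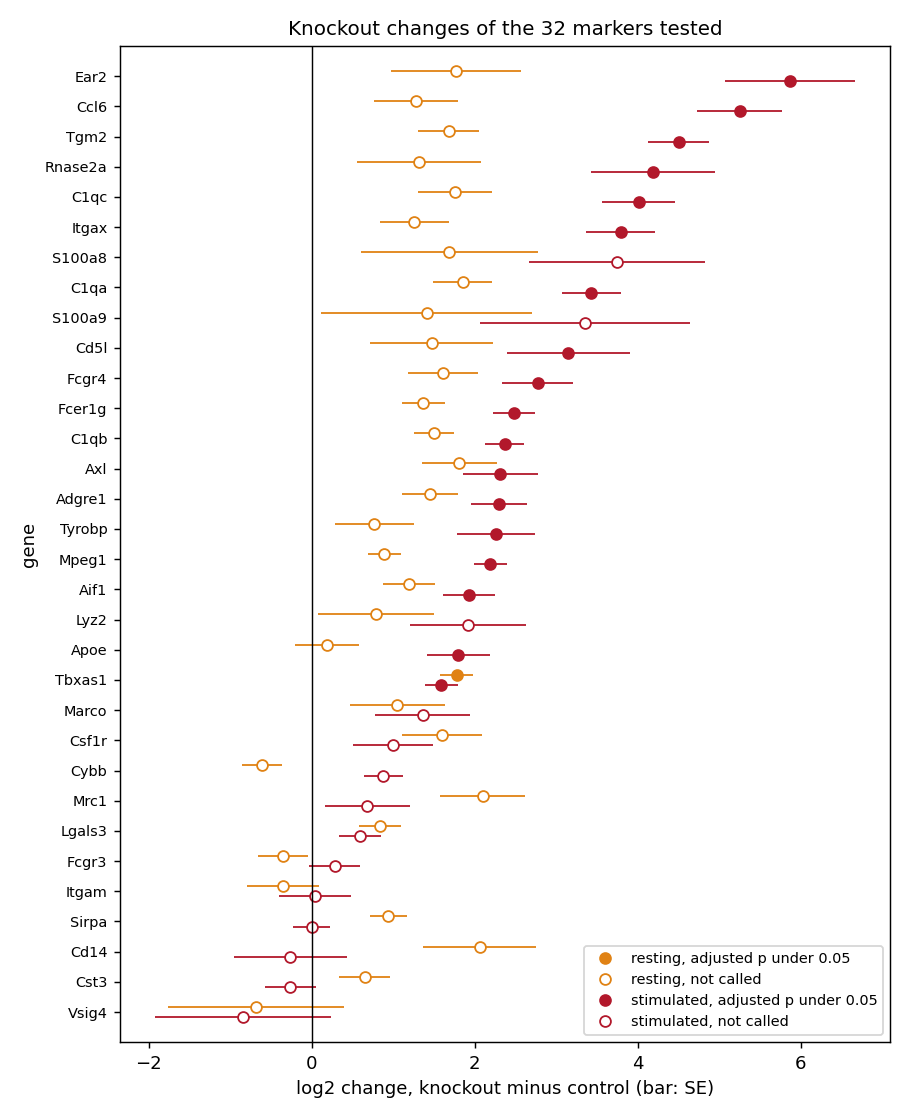
Log2 change, knockout minus control, of the 32 tested markers in resting cells (orange) and stimulated cells (red), with bars of 1 SE and filled points for an adjusted p under 0.05. Of the stimulated points 18 are filled and lie to the right of 0, against 1 of the resting points, Tbxas1; for C1qa, Rnase2a, Itgax, Fcgr4, S100a8 and Cd14 the control stimulated arrays were all below background, so the drawn stimulated change is not a measured fold.

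The complement chains C1qa, C1qb and C1qc assemble into C1q, the recognition molecule of the classical complement pathway, which macrophages secrete. All 3 were higher in knockout cells in both states and called in the stimulated state. C1qa read 0.07, 0.30 and 0.72 in resting control cells (replicates 1, 2 and 3, as in all lists of levels here), 2.04, 2.32 and 2.30 in resting knockout cells, and 0.02, 0.88 and 0.10 in stimulated knockout cells. On the stimulated control arrays it read -3.15, -2.36 and -3.78 and was not well above background on any of them. The groups did not overlap in either state. In stimulated cells C1qa was at least 3.85-fold higher in the knockout (means 0.33 and -3.10, adjusted p = 0.00206), a bound taken from the dimmest signal still well above background. In resting cells its change of 1.85 (SE 0.36) had an adjusted p of 0.153, with 1.99 and 1.57 on slides 1 and 2.

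C1qb stood at 0.17, 0.15 and 0.68 in resting control and at 1.71, 1.87 and 1.92 in resting knockout cells. After stimulation it read -1.64, -2.06 and -1.41 in control cells, above background on 1 array, and 0.48, 1.00 and 0.52 in knockout cells. Knockout and control arrays were separate in both states. It rose by 2.37 (SE 0.24, 5.16-fold, adjusted p = 0.00206; slides 2.59 and 1.92) in stimulated knockout cells, and its resting change was 1.50 (SE 0.24, adjusted p = 0.0952; slides 1.63 and 1.24). For C1qc the levels were 0.99, 1.24 and 1.58 in resting control, 2.80, 3.28 and 3.02 in resting knockout, -3.79, -2.06 and -2.27 in stimulated control and 1.05, 2.04 and 0.84 in stimulated knockout cells. Again no knockout array overlapped a control array. The stimulated change was 4.01 (SE 0.45, 16.1-fold, adjusted p = 0.00261; slides 4.46 and 3.11), with 1 of 3 control arrays above background, and the resting change was 1.76 (SE 0.45, adjusted p = 0.181; slides 1.92 and 1.44).

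Macrophage identity genes gave calls for Adgre1, Mpeg1 and Aif1 and none for Csf1r. Adgre1 encodes the adhesion receptor by which mouse macrophages are usually recognised. It read 0.31, 0.51 and 0.68 in resting control, 1.83, 2.29 and 1.73 in resting knockout, -0.43, -0.57 and -0.32 in stimulated control and 2.64, 1.88 and 1.06 in stimulated knockout cells. The stimulated groups were apart, with 2 of 3 control arrays above background, and replicate 1 was the highest of the knockout arrays. It rose by 2.30 (SE 0.34, 4.91-fold, adjusted p = 0.0104; slides 2.76 and 1.37) in stimulated knockout cells, and its second probe gave 1.91. The call ended without knockout stimulated replicate 2, at 2.28 and an adjusted p of 0.0853. In resting cells the change was 1.45 (SE 0.34, adjusted p = 0.161).

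Mpeg1 encodes perforin-2, a pore-forming protein of phagosomes that B cells can also express. Its levels were 3.82, 3.75 and 3.44 in resting control, 4.36, 4.78 and 4.54 in resting knockout, 1.23, 1.08 and 1.29 in stimulated control and 3.51, 3.14 and 3.53 in stimulated knockout cells. Every array was above background and the genotypes were apart in both states. It rose by 2.19 (SE 0.20, 4.57-fold, adjusted p = 0.00152; slides 2.17 and 2.24) in stimulated knockout cells, and the resting change was 0.89 (SE 0.20, adjusted p = 0.158; slides 0.78 and 1.09). The second Mpeg1 probe gave 1.49 in stimulated and 0.62 in resting cells. Aif1 encodes IBA1, an actin-binding protein of macrophages and microglia. It read 2.13, 2.02 and 2.22 in resting control, 2.95, 3.40 and 3.59 in resting knockout, -2.43, -1.23 and -1.34 in stimulated control and -0.04, 0.29 and 0.54 in stimulated knockout cells. The genotypes did not overlap. It rose by 1.93 (SE 0.32, 3.81-fold, adjusted p = 0.0132; slides 1.96 and 1.88), with 1 control array above background, and the call ended without knockout stimulated replicate 2 or 3 (changes 1.79 to 1.92, adjusted p 0.0529 to 0.117). Its resting change was 1.19 (SE 0.32, adjusted p = 0.183).

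Csf1r encodes the receptor for CSF1, on which most tissue macrophages depend. It read 3.21, 3.31 and 3.71 in resting control and 4.59, 5.30 and 5.14 in resting knockout cells, which were apart, and the change was 1.60 (SE 0.49, adjusted p = 0.206; slides 1.69 and 1.44). After stimulation it read 1.04, 0.31 and 2.57 in control and 1.94, 2.76 and 2.24 in knockout cells. These groups overlapped, since control replicate 3 lay above 2 knockout arrays. The stimulated change was 1.00 (SE 0.49, 95% interval -0.07 to 2.08, adjusted p = 0.253; slides 1.67 and -0.34). The 3 Csf1r probes did not give the same values: the second gave -0.11 and -0.04 and the third 0.88 and 0.74 in resting and stimulated cells, none of them called.

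Among Fc receptors and adaptors, Fcer1g, Tyrobp and Fcgr4 were called in stimulated cells and Fcgr3 was not. Fcer1g encodes the common FcR gamma chain. It read 2.34, 2.25 and 1.90 in resting control, 3.43, 3.67 and 3.52 in resting knockout, 1.32, 0.47 and 1.46 in stimulated control and 3.54, 3.41 and 3.74 in stimulated knockout cells. All 12 arrays were above background and the genotypes were apart in both states. Fcer1g rose by 2.48 (SE 0.26, 5.58-fold, adjusted p = 0.00206; slides 2.58 and 2.28) in stimulated knockout cells, and its resting change was 1.37 (SE 0.26, adjusted p = 0.144; slides 1.25 and 1.62).

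Tyrobp encodes DAP12, the adaptor of many myeloid and NK cell receptors. Its levels were 3.79, 3.76 and 3.56 in resting control, 4.35, 4.41 and 4.68 in resting knockout, 0.59, 0.04 and 2.22 in stimulated control and 2.77, 3.04 and 3.82 in stimulated knockout cells. The stimulated groups were apart, with control replicate 3 near the lowest knockout array and 2 of 3 control arrays above background. It rose by 2.26 (SE 0.48, 4.79-fold, adjusted p = 0.0307; slides 2.59 and 1.60). This call held without control stimulated replicate 2, control stimulated replicate 3 or knockout resting replicate 3 and ended without any one of the other 9 arrays (changes 1.96 to 2.48, adjusted p 0.0523 to 0.174). The resting change was 0.77 (SE 0.48, adjusted p = 0.323).

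Fcgr4 encodes Fc gamma receptor IV, an activating receptor of macrophages and neutrophils. It read -1.10, -0.50 and -0.84 in resting control, 0.51, 1.12 and 0.75 in resting knockout and -0.46, 0.17 and -1.11 in stimulated knockout cells. On the stimulated control arrays it read -4.0, -2.32 and -3.40 and was not well above background. It was at least 2.21-fold higher in stimulated knockout cells (means -0.47 and -3.24, adjusted p = 0.0113). The call ended without knockout stimulated replicate 1 or 2 (adjusted p 0.054 to 0.0977). Fcgr3 encodes the low-affinity Fc gamma receptor III. It read 0.93, 0.33 and 0.19 in resting control, 0.02, 0.24 and 0.15 in resting knockout, -0.70, -1.80 and -0.62 in stimulated control and -0.79, -0.84 and -0.64 in stimulated knockout cells, with overlap in both states. Its changes were -0.35 (SE 0.31, adjusted p = 0.463) and 0.28 (SE 0.31, adjusted p = 0.599), and the sign of the stimulated one turned to -0.28 with arrays scaled on their median.

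Of the enzymes and secreted proteins, Tgm2, Tbxas1 and Apoe were called in stimulated cells, and Lyz2, Lgals3, Cst3 and Cybb were not. Tgm2 encodes transglutaminase 2, which cross-links proteins and helps macrophages clear dying cells. It read 0.54, 0.88 and 0.50 in resting control, 2.37, 2.43 and 2.16 in resting knockout, -0.99, -0.77 and -0.99 in stimulated control and 3.59, 4.51 and 2.64 in stimulated knockout cells. The stimulated groups lay far apart, with 2 of 3 control arrays above background. It rose by 4.50 (SE 0.37, 22.6-fold, adjusted p = 0.00152; slides 4.93 and 3.63), its second probe gave 3.49, and its call ended in 1 of 26 other settings, the fit on the stimulated arrays alone (adjusted p = 0.0553). The resting change was 1.68 (SE 0.37, adjusted p = 0.158; slides 1.69 and 1.66).

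Tbxas1, which encodes thromboxane synthase, was the marker called in both states. It read -1.23, -0.91 and -0.83 in resting control, 0.69, 1.10 and 0.59 in resting knockout, 0.44, 0.49 and 0.42 in stimulated control and 2.13, 1.80 and 2.19 in stimulated knockout cells. Every array was above background and the genotypes were apart in each state. It rose by 1.78 (SE 0.20, 3.44-fold, adjusted p = 0.0398; slides 1.96 and 1.42) in resting and by 1.59 (SE 0.20, 3.02-fold, adjusted p = 0.00521; slides 1.50 and 1.78) in stimulated knockout cells. The resting call ended in 16 of 27 other settings. It held without control stimulated replicate 2 or knockout resting replicate 3 and ended without any one of the other 10 arrays (changes 1.63 to 1.86, adjusted p 0.0674 to 0.334). The stimulated call held with any single array left out and ended in 5 other settings, among them arrays scaled on their median (1.04, adjusted p = 0.119).

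Apoe encodes apolipoprotein E, a lipid carrier that macrophages secrete. It read 4.70, 4.78 and 4.83 in resting control, 4.86, 5.09 and 4.93 in resting knockout, 1.66, 1.03 and 2.20 in stimulated control and 3.88, 3.94 and 2.47 in stimulated knockout cells. Knockout replicate 3 lay close to control replicate 3, which shares its slide. Apoe rose by 1.80 (SE 0.39, 3.48-fold, adjusted p = 0.0344; slides 2.57 and 0.27). The call held without control stimulated replicate 3 or knockout stimulated replicate 3 and ended without any one of the other 10 arrays (changes 1.50 to 1.82, adjusted p 0.054 to 0.23). In resting cells the change was 0.19 (SE 0.39, adjusted p = 0.739), and it turned to -0.41 with arrays scaled on their median.

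Lyz2 encodes lysozyme M, an abundant enzyme of macrophages and neutrophils. It read -0.08, -0.13 and -0.96 in resting control, 0.36, 0.18 and 0.67 in resting knockout, -3.06, -0.41 and -2.77 in stimulated control and 0.18, 0.78 and -1.46 in stimulated knockout cells. The stimulated groups overlapped, since knockout replicate 3 lay below control replicate 2. The changes were 0.79 (SE 0.71, adjusted p = 0.46) and 1.92 (SE 0.71, 95% interval 0.36 to 3.48, adjusted p = 0.158). Lgals3, galectin 3, gave 0.84 in resting (adjusted p = 0.208) and 0.59 in stimulated cells (adjusted p = 0.213), and the protease inhibitor Cst3, cystatin C, of 0.65 (adjusted p = 0.262) and -0.26 (adjusted p = 0.631), a sign that turned to 0.17 with quantile normalization. Cybb encodes the catalytic subunit of the phagocyte oxidase, which B cells also express. It read 2.58, 2.58 and 2.12 in resting control, 1.78, 1.93 and 1.74 in resting knockout, 0.25, -0.37 and 0.34 in stimulated control and 1.26, 0.85 and 0.77 in stimulated knockout cells. The knockout arrays lay below the control arrays in resting cells and above them in stimulated cells. The changes were -0.61 (SE 0.24, adjusted p = 0.233) and 0.88 (SE 0.24, adjusted p = 0.0773).

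**Figure D4:**
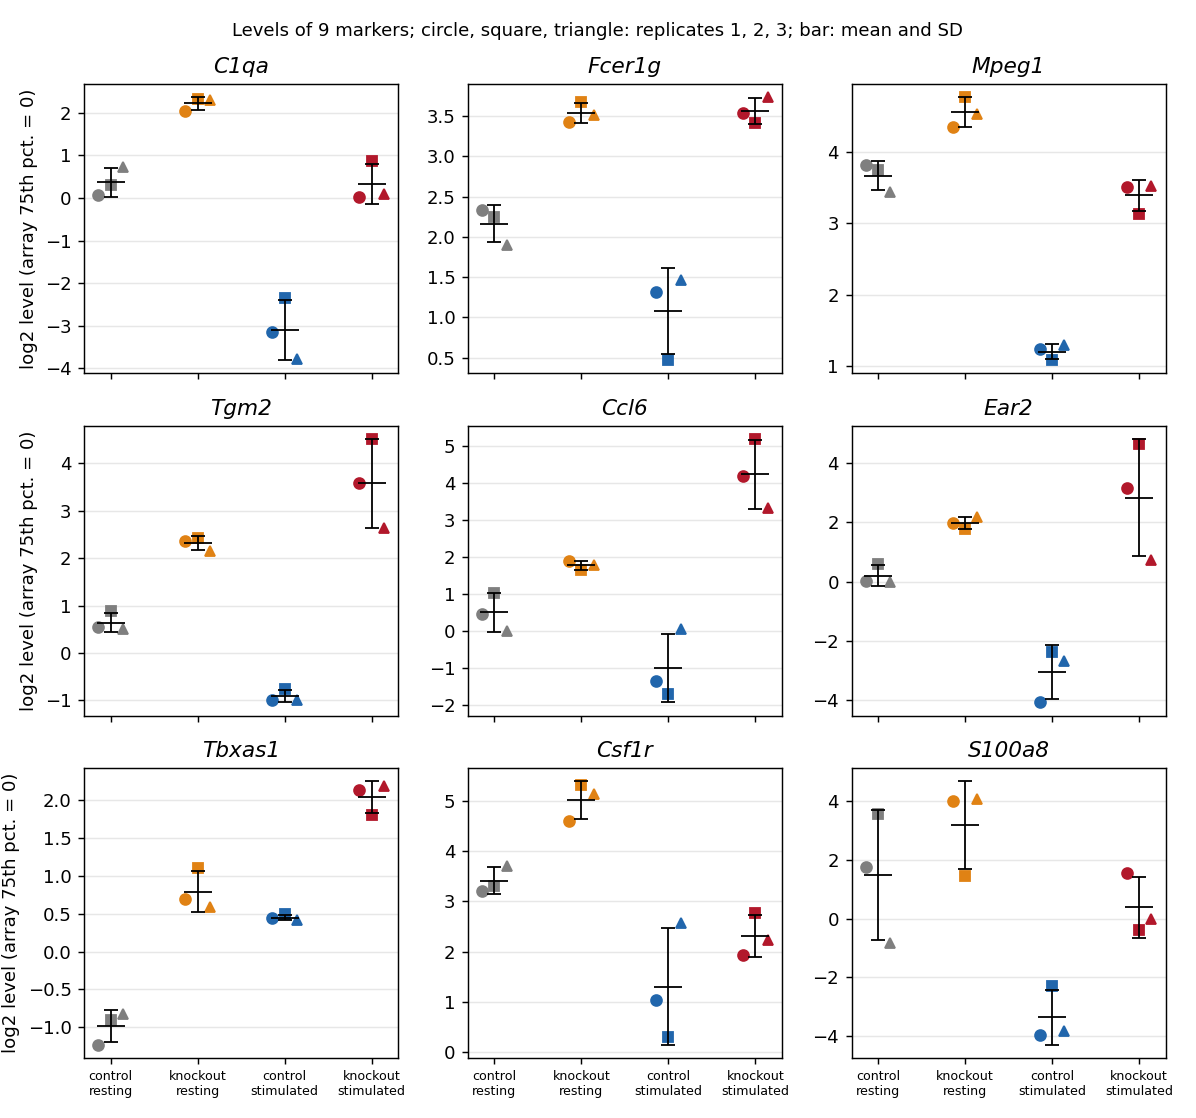
Log2 levels (relative to the array's 75th percentile) of 9 markers on every array, by group; circles, squares and triangles are replicates 1, 2 and 3 and bars give the mean and SD (n = 3). The stimulated knockout arrays lie above all stimulated control arrays in each panel but that of Csf1r, where control replicate 3 (2.57) lies above 2 knockout arrays; S100a8 shows the widest spread within groups, from -0.84 to 3.55 in control resting cells.

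The chemokine Ccl6 and the ribonucleases Ear2 and Rnase2a were called higher in stimulated knockout cells, with a wide spread between the knockout arrays. Ccl6 is a chemokine made by macrophages and granulocytes. It read 0.47, 1.04 and 0.01 in resting control, 1.90, 1.65 and 1.79 in resting knockout, -1.35, -1.70 and 0.05 in stimulated control and 4.20, 5.20 and 3.34 in stimulated knockout cells. All knockout arrays lay above all control arrays in both states. Ccl6 rose by 5.25 (SE 0.52, 38-fold, adjusted p = 0.00194; slides 6.23 and 3.29) in stimulated knockout cells, with 2 of 3 control arrays above background. Its resting change was 1.28 (SE 0.52, adjusted p = 0.237).

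Ear2 encodes an eosinophil-associated ribonuclease. It read 0.01, 0.60 and -0.02 in resting control, 1.96, 1.77 and 2.18 in resting knockout, -4.07, -2.39 and -2.67 in stimulated control (1 array above background) and 3.14, 4.62 and 0.71 in stimulated knockout cells. The groups did not overlap, and replicate 3 was the lowest of the knockout arrays. It rose by 5.87 (SE 0.80, adjusted p = 0.00635; slides 7.11 and 3.38), a size that rests on control values mostly below background. Rnase2a is a related ribonuclease, and probes of this family can detect each other's transcripts. It read -0.88, -0.70 and -0.72 in resting control, 0.62, 0.12 and 0.91 in resting knockout and 1.43, 2.92 and -0.40 in stimulated knockout cells. On the stimulated control arrays it read -3.78, -1.52 and -3.33 and was not well above background. It was at least 7.61-fold higher in stimulated knockout cells (means 1.32 and -2.88, adjusted p = 0.0185). The call ended without control stimulated replicate 1 or knockout stimulated replicate 1 or 2 (adjusted p 0.0736 to 0.117). Resting changes of the 2 genes were 1.77 (adjusted p = 0.252) and 1.32 (adjusted p = 0.304).

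S100a8 and S100a9, which encode the subunits of calprotectin and are abundant in neutrophils, were not called between genotypes. S100a8 read 1.75, 3.55 and -0.84 in resting control, 3.99, 1.46 and 4.07 in resting knockout and 1.56, -0.40 and -0.03 in stimulated knockout cells, and on the stimulated control arrays it read -3.96, -2.30 and -3.82, not well above background. The resting groups overlapped. S100a9 read 3.55, 5.16 and 1.13 in resting control, 5.48, 3.15 and 5.45 in resting knockout, -4.10, -0.74 and -0.30 in stimulated control and 3.19, -0.15 and 1.88 in stimulated knockout cells. In resting control cells both genes were highest on replicate 2 and lowest on replicate 3, and in resting knockout cells both were lowest on replicate 2. S100a8 was at least 3.97-fold higher in stimulated knockout cells, with an adjusted p of 0.0899, and S100a9 had a change of 3.35 (SE 1.29, adjusted p = 0.171). The resting change of S100a8 was 1.69 (SE 1.08, adjusted p = 0.335; slides 0.07 and 4.91), and that of S100a9 was 1.41 (SE 1.29, adjusted p = 0.471; slides -0.04 and 4.32).

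The integrin gene Itgax, which encodes CD11c of dendritic cells, macrophages and some B cells, was called in stimulated cells, and Itgam, which encodes CD11b, was not. Itgax read 1.46, 1.63 and 1.45 in resting control, 2.75, 2.87 and 2.68 in resting knockout and 0.30, 1.10 and 0.07 in stimulated knockout cells. On the stimulated control arrays it read -3.88, -2.20 and -3.82 and was not well above background. It was at least 4.28-fold higher in stimulated knockout cells (means 0.49 and -3.30, adjusted p = 0.00242), and its resting change was 1.26 (SE 0.42, adjusted p = 0.215; slides 1.27 and 1.23). By its brightest probe Itgam ranged from 2.81 to 4.73 over all 12 arrays. Its changes were -0.35 (limma, 95% interval -1.33 to 0.63, adjusted p = 0.593) in resting and 0.04 (95% interval -0.94 to 1.02, adjusted p = 0.966) in stimulated cells. Under other scalings the resting change turned to 0.00 and the stimulated change to -0.52. The dimmer Itgam probes, above background on 6 and 5 of 12 arrays, were not tested. They gave 2.08 and 0.41 in resting and 0.15 and -0.63 in stimulated cells, so the direction differed between probes.

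Of the scavenger receptor family and pattern recognition genes only Cd5l was called. It encodes a secreted scavenger receptor family protein of macrophages that keeps them alive. It read 0.83, 1.22 and 1.61 in resting control, 2.32, 2.90 and 2.86 in resting knockout, -2.86, 0.27 and 0.74 in stimulated control and 2.10, 2.69 and 2.81 in stimulated knockout cells. Control replicate 1 lay far below the other 2 stimulated control arrays, and 2 of the 3 were above background. Cd5l rose by 3.15 (SE 0.75, 8.88-fold, adjusted p = 0.0472; slides 3.69 and 2.07), and the change was 2.03 (adjusted p = 0.0653) without both arrays of control replicate 1. The call ended without any one resting array or any one stimulated knockout array (changes 3.01 to 3.37, adjusted p 0.0713 to 0.238). Its resting change was 1.47 (SE 0.75, adjusted p = 0.274).

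Mrc1, the mannose receptor CD206, read 0.67, 1.39 and 0.96 in resting knockout against -1.60, -0.86 and -0.82 in resting control cells, with a change of 2.10 (SE 0.52, adjusted p = 0.175). In stimulated cells its change was 0.68 (SE 0.52, adjusted p = 0.454; slides 1.57 and -1.12). Cd14, the co-receptor for bacterial lipopolysaccharide, had a resting change of 2.06 (SE 0.69, adjusted p = 0.216), with 2 of 3 control arrays above background, and in stimulated cells it was above background on 1 knockout and 0 control arrays. Marco, a receptor of marginal zone macrophages, differed by 1.05 (adjusted p = 0.293) in resting and by 1.36 (adjusted p = 0.207) in stimulated cells.

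Axl, a receptor tyrosine kinase that binds dying cells through a bridging ligand, was called in stimulated cells. It read -0.66, -0.32 and -0.03 in resting control, 1.40, 1.43 and 1.58 in resting knockout, -2.99, -2.10 and -1.03 in stimulated control and 0.47, 0.80 and -0.47 in stimulated knockout cells. The genotypes were apart in each state. Axl rose by 2.31 (SE 0.46, 4.95-fold, adjusted p = 0.0257; slides 3.18 and 0.56), with 1 control array above background. The call ended without control stimulated replicate 1, knockout resting replicate 1 or 2, or knockout stimulated replicate 1 or 2 (changes 1.83 to 2.31, adjusted p 0.0512 to 0.189). In resting cells its change was 1.81 (SE 0.46, adjusted p = 0.181). Sirpa, the receptor for the "do not eat me" protein CD47, had changes of 0.94 (SE 0.23, adjusted p = 0.161) and -0.00 (SE 0.23, 95% interval -0.50 to 0.50, adjusted p = 0.999), the latter 0.27 with quantile normalization and -0.56 with arrays scaled on their median. Vsig4, a complement receptor of tissue macrophages, was above background on 6 of 12 arrays. Its resting change was -0.68 (adjusted p = 0.667) and its stimulated change -0.84 (adjusted p = 0.655).

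The 4 genes that were not tested were dim. Fcgr1, the high-affinity Fc gamma receptor, was above background on 6 of 12 arrays, Mertk, the second dying cell receptor of the Axl family, on 5, Msr1, the macrophage scavenger receptor, on 4 and Timd4, a phosphatidylserine receptor, on 0. Msr1 was above background on 2 resting and 2 stimulated knockout arrays and on no control array. Mertk was above background on 1 resting control, 2 resting knockout and 2 stimulated knockout arrays.

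Most of the markers were lower in stimulated than in resting control cells. Whether the resting cells were also kept in culture is not settled by the labels, so a stimulated minus resting change can include the culture itself. Of the 32 tested, 20 fell and 3 rose, where 13.1% of features were called lower and 14.7% higher (27.9% in either direction). The median change was -1.85, against 0.04 over all features, with -2.07 on slide 1 and -1.41 on slide 2. A positive change was seen in 4 genes and in 52% of features. For 23 genes all stimulated arrays lay below all resting arrays and for 3 above, where 19.6% and 20.3% of features did. With the replicate number as a block 26 were called, adding decreases of Rnase2a (adjusted p = 0.0496), Itgam (adjusted p = 0.0335) and Cd5l (adjusted p = 0.0372). Without both arrays of control replicate 1 the count was 13. Other lists fell in the same comparison: 13 of 15 B cell markers were called lower (median -1.59), 4 of 6 platelet markers (median -2.11) and 1 of 4 erythroid markers (median -1.55), while 6 of 7 plasma cell genes were called higher (median 2.37). With the replicate number as a block these counts were 15, 5, 2 and 7. Their part in the markers' changes was not tested.

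In control cells Lgals3 rose by 3.70 (SE 0.26, adjusted p = 9.48e-06), from 3.08, 2.88 and 2.81 to 6.98, 6.74 and 6.14, and was the highest rise among the members. Tbxas1 rose by 1.44 (SE 0.20, adjusted p = 3.96e-04) and Sirpa by 0.92 (SE 0.23, adjusted p = 0.011). The 3 C1q chains fell, C1qb by 2.04 (SE 0.24) and C1qc by 3.97 (SE 0.45), and C1qa was at least 3.94-fold lower. Itgax was at least 8.71-fold, S100a8 at least 8.56-fold and Fcgr4 at least 1.74-fold lower. These 4 genes were not well above background on any stimulated control array. Aif1 fell by 3.79 (SE 0.32, adjusted p = 2.06e-05), Apoe by 3.14 (SE 0.39, adjusted p = 1.92e-04), Mpeg1 by 2.47 (SE 0.20, adjusted p = 1.66e-05), Cybb by 2.35 (SE 0.24, adjusted p = 5.69e-05) and Csf1r by 2.10 (SE 0.49, adjusted p = 0.00808; slides -2.58 and -1.13). With single arrays left out 18 of the 23 calls held, and those of Fcer1g, Cst3, Marco, Axl and S100a9 ended in at least 1 case, for S100a9 without control resting replicate 1 or 2 or control stimulated replicate 1 (changes -4.86 to -3.80).

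In knockout cells 11 of the 32 fell and 4 rose, where 5.2% of features were called lower and 10.9% higher (16.1% in either direction). The median change was -1.17, against 0.10 over all features, with -0.95 on slide 1 and -1.44 on slide 2. A positive change was seen in 8 genes and in 56.9% of features. For 17 genes all stimulated arrays lay below all resting arrays and for 4 above, where 12.1% and 21.8% of features did. The count of calls was 8 on slide 1 alone and 10 without knockout resting replicate 1. Lgals3 rose by 3.45 (SE 0.26, adjusted p = 3.36e-05), Ccl6 by 2.47 (SE 0.52, adjusted p = 0.00907), Tgm2 by 1.26 (SE 0.37, adjusted p = 0.0436) and Tbxas1 by 1.25 (SE 0.20, adjusted p = 0.00201). The call of Tgm2 held with no array left out but knockout stimulated replicate 3 (otherwise 0.80 to 1.31, adjusted p 0.0536 to 0.191), and that of Ccl6 ended without knockout stimulated replicate 2 (1.99, adjusted p = 0.0572). Aif1 fell by 3.05 (SE 0.32, adjusted p = 1.65e-04), Csf1r by 2.70 (SE 0.49, adjusted p = 0.00379; second probe -0.72, not called), Itgax by 2.28 (SE 0.42, adjusted p = 0.0041), Cst3 by 1.97 (SE 0.31, adjusted p = 0.00174), C1qa by 1.89 (SE 0.36, adjusted p = 0.00508), C1qb by 1.17 (SE 0.24, adjusted p = 0.0077) and Mpeg1 by 1.17 (SE 0.20, adjusted p = 0.00255). The second Mpeg1 probe gave -0.55 and was not called. Calls of C1qc, Apoe, Cd14 and Cybb ended with at least 1 single array left out.

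**Figure D5:**
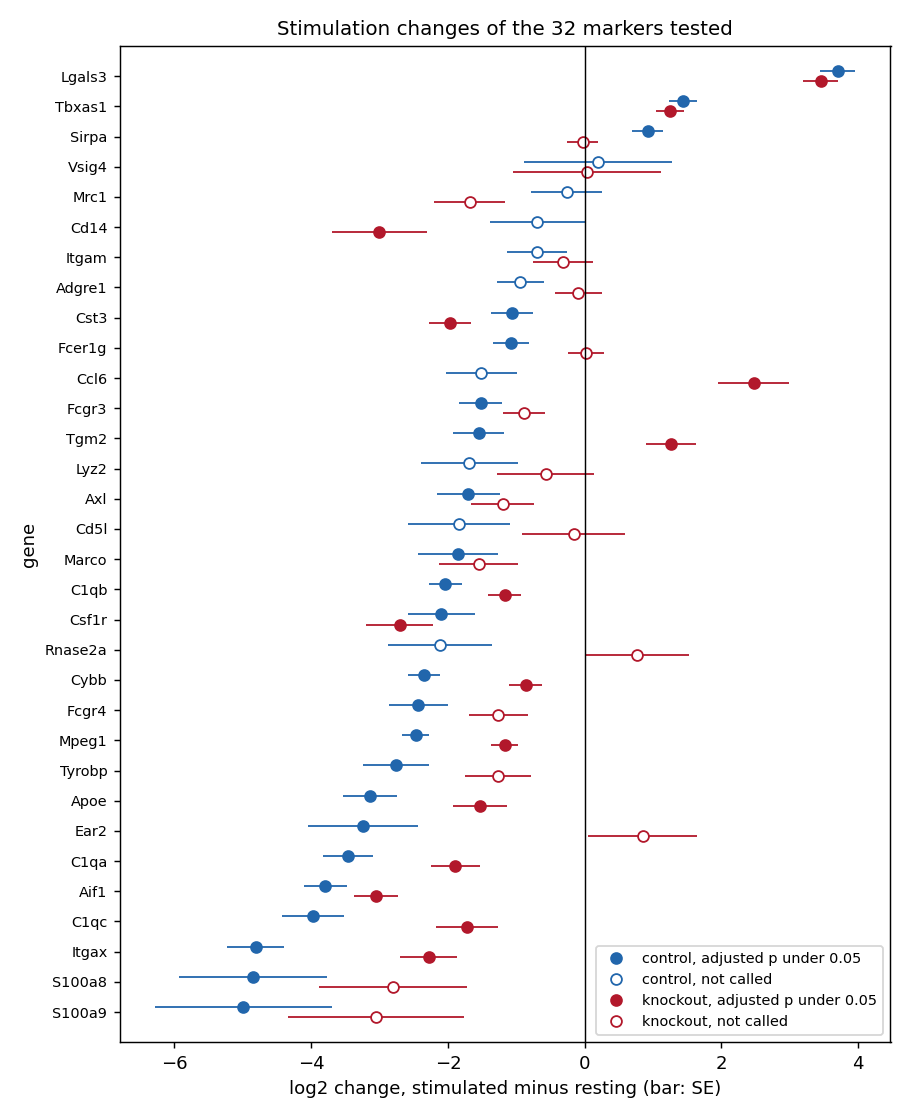
Log2 change, stimulated minus resting, of the 32 tested markers in control cells (blue) and knockout cells (red), with bars of 1 SE and filled points for an adjusted p under 0.05. In control cells 20 filled points lie left of 0 and 3 right of it, Lgals3, Tbxas1 and Sirpa; in knockout cells 11 lie left and 4 right, Lgals3, Ccl6, Tgm2 and Tbxas1. For C1qa, Itgax, S100a8, Fcgr4, Rnase2a and Cd14 the control stimulated arrays were all below background, so the drawn control change is not a measured fold.

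Whether stimulation acted differently in the 2 genotypes was tested as the interaction of genotype and stimulation. By limma 0 of the 32 were called, with 14 at an unadjusted p under 0.05, where 0.144% of features were called (0.0523% higher and 0.0915% lower). The median interaction was 1.11, against 0.08 over all features, and it was positive in 24 of 32 genes and in 56.7% of features. The smallest adjusted p were those of Tgm2 (2.82, SE 0.53, 95% interval 1.64 to 3.99) and Ccl6 (3.97, SE 0.74, 95% interval 2.33 to 5.61), both 0.0712. Mpeg1 followed with 1.30 (SE 0.28, adjusted p = 0.108) and Cybb with 1.49 (SE 0.34, adjusted p = 0.127). For Lgals3 the interaction was -0.25 (SE 0.37, 95% interval -1.06 to 0.56) and for Tbxas1 -0.19 (SE 0.29, 95% interval -0.82 to 0.44).

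Further genes of the same cells were taken from separate lists. These lists too were put together with earlier results of these arrays known. Their changes are therefore a description and no independent evidence for the markers' direction. Of 26 tested genes of splenic and inflammatory macrophages 8 were called higher and 0 lower in stimulated knockout cells, with a median of 0.92, and 1 higher in resting knockout cells, with a median of 1.04. Over all features 1.21% were called higher and 2.26% lower in stimulated knockout cells. In resting knockout cells 0.00871% were called higher. Vcam1, an adhesion molecule of red pulp macrophages, rose by 3.41 (SE 0.50, adjusted p = 0.00968) and the lectin Clec4n by 1.85 (SE 0.26, adjusted p = 0.00754) in stimulated knockout cells. The chemokine Ccl9 was at least 5.39-fold higher there (adjusted p = 0.0138) and the iron exporter Slc40a1 at least 1.6-fold (adjusted p = 0.016), since both were below background on all stimulated control arrays. With the replicate number as a block 9 of the 26 were called, adding Hmox1 (adjusted p = 0.0421). The haem-degrading enzyme Hmox1 rose by 1.82 (SE 0.22, adjusted p = 0.0416) in resting knockout cells. Of 16 tested genes of neutrophils, eosinophils, basophils and mast cells 1 was called, the ribonuclease Ear1, which rose by 3.36 (SE 0.64, adjusted p = 0.0211) in stimulated knockout cells. It was above background on 1 stimulated control array. Probes of this ribonuclease family can detect each other's transcripts, and whether the Ear1 signal is separate from that of Ear2 was not tested. The list's median was 0.88 in stimulated and 1.58 in resting cells. Its summed intensity, over 28 genes, went the other way at rest, with 201 to 269 per array in control and 162 to 179 in knockout cells. After stimulation the sums overlapped, at 161 to 174 in control and 116 to 182 in knockout cells. The summed intensity of the 36 markers, relative to the 75th percentile, was 197 to 217 per array in resting control and 333 to 414 in resting knockout cells. In stimulated cells it was 155 to 184 in control and 256 to 400 in knockout. Such a sum is weighted towards bright genes. Mean levels of Lgals3, also known from B cells, were 2.92 in resting control and 3.77 in resting knockout cells. After stimulation they were 6.62 and 7.22, the highest of the members, so Lgals3 weighs most in the stimulated sums.

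Markers of other cell types moved in the same arrays. Their lists were also chosen with earlier results known. Over all features 1.21% were called higher and 2.26% lower in stimulated knockout cells, and 0.0131% in either direction in resting knockout cells. In stimulated knockout cells 4 of 7 tested NK cell markers were called higher (Gzmb by 3.14, Gzma by 3.1, Eomes by 2.55 and Nkg7 by 1.57), 3 of 12 T cell markers (Zap70, Bcl11b and Cd3g, the last not called with the replicate block, adjusted p = 0.0529), 1 of 9 dendritic cell markers (Ccr9), 1 of 4 erythroid markers (Hba-a1) and 1 of 6 platelet markers (Itgb3), and 0 of these lists' genes were called lower. The summed intensity of the 9 NK markers was 35.7 to 37.4 per array in stimulated control and 219 to 427 in stimulated knockout cells, and that of the 15 T cell markers was 58.4 to 71.7 and 87 to 101. Of 7 plasma cell genes 6 were called lower (7 with the replicate block), among them Mzb1 at -1.46, Irf4 at -1.44 and Jchain at -2.45. Of 15 B cell markers 2 were called lower, Cd79a at -1.10 (adjusted p = 0.0343) and Fcer2a at -1.01 (adjusted p = 0.042). Cre is inserted into Cd79a in every knockout sample, so the Cd79a change in either state cannot be told apart from an effect of the insertion. The list median was 0.05 (with the replicate block 1 was called higher and 2 lower). Summed intensities of the list were 973 to 1430 in control and 1060 to 1290 in knockout cells. In resting knockout cells 0 of the genes of these lists were called, all 15 B cell markers had negative changes (median -0.59), and their summed intensity was 1400 to 1620 against 1930 to 2290 in control cells. The other lists had positive medians there, 2.02 for erythroid markers (4 of 4 positive), 1.15 for dendritic cell markers (7 of 9), 0.66 for T cell markers (10 of 12), 0.66 for NK cell markers (6 of 7), 0.48 for platelet markers (5 of 6) and 0.36 for plasma cell genes (5 of 7). The part of these other cell types in the changes of the myeloid markers was not tested.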

How the data were processed

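RNA of splenic B cells was measured on 12 one-colour Agilent arrays, 3 in each of 4 groups taken from the labels. The authors deposited the scanner output of each array, per the file headers from Feature Extraction 10.7.3.1 (9.1 per the submitters' processing notes), and the processed Cy3 intensity was used, which that software had already corrected for background. The value table of the series held the same intensities, rounded. Probe accessions were named through a RefSeq table of GRCm38.p6, which gave a gene to 26413 of 55681 probes.

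The members and the lists of other genes were chosen with earlier results of these data known. From each log2 intensity the 75th percentile of that array's non-control spots was subtracted. Outlier spots were left out, and repeated spots of a probe entered as their mean. A probe entered the test if some group had it well above background on each of its 3 arrays, with the brightest probe of a gene by its mean over all arrays and every unnamed probe, which left 22953 features (12269 named genes). One limma model (version 3.58.1, R 4.3.3) with 4 group means was fitted to all features. Its moderated test was two-sided, with Benjamini-Hochberg adjustment over all features and a threshold of 0.05. A change is the difference of 2 groups' mean log2 levels, and "at least" folds set the dim group at the lowest signal well above background or its own signal, whichever was higher. All 36 genes on the array are described, and those the results turn on are given on every array.

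Replicate numbers are shared between groups. Same-numbered samples deviated together in the stimulated knockout comparison (correlations over features of 0.35, 0.33 and 0.48) and in the stimulation comparison in control cells (0.42, 0.43 and 0.51), and the blocked values of members and named genes are given there where they change a call. In resting knockout (-0.12, 0.20 and 0.39) and knockout stimulation (0.00, 0.15 and 0.39) the correlations of replicates 1 and 2 were lower. Replicate 3 of every group lay on slide 2, so pairing and slide cannot be told apart in these correlations. Alternatives covered normalization, background correction, the filter, the probe, the model, slide and replicate blocks and left-out arrays.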

Additional observations from a re-analysis of the deposited data

Results flagged for a closer look

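For 2 genes the effect of 1 factor had opposite directions at the 2 levels of the other on every array, while the test of that difference did not pass the threshold. Cybb, the oxidase subunit that B cells also express, was lower on all resting knockout arrays and higher on all stimulated knockout arrays than on the matching control arrays, and the difference of these effects was 1.49 (limma, adjusted p = 0.127). Tgm2 was lower on all stimulated than on all resting arrays in control cells and higher in knockout cells, and the difference of the stimulation effects was 2.82 (limma, adjusted p = 0.0712).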

How the results depend on the processing

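The direction of the members' median change held in all 4 comparisons between groups under all settings tried. The number of all features called also depends on the setting, so a members' count below is not by itself a result about the members. With the replicate number as a block, 28 features were called higher and 13 lower in resting knockout cells, against 2 and 1 in the main fit. In stimulated knockout cells these numbers were 815 and 1036, against 277 and 518. In resting knockout cells the count of 1 called member became 5 with quantile normalization, 5 with the percentile over spots detected on all arrays, 10 with normexp, 3 with probes above background on all 12 arrays, 8 with trend and robust fitting and 6 with array weights. It was 0 with scaling on the array median, without a filter, with the second brightest probe, with only the groups of the contrast, without both arrays of control replicate 1 and on slide 1 alone, and 0 to 1 with single arrays left out. Its median of 1.35 became 0.74 with scaling on the array median (1.24 to 1.41 with single arrays left out). In stimulated knockout cells the 18 calls became 9 without a filter, 4 with probes above background on all 12 arrays, 0 with only the groups of the contrast, 8 without both arrays of control replicate 1 and 2 on slide 1 alone, with 10 to 19 under single arrays left out. The median of 2.23 became 1.67 with scaling on the array median, 1.40 with normexp and 1.00 with probes above background on all 12 arrays (1.93 to 2.34 with single arrays left out).

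For stimulation in control cells the 23 calls became 8 with probes above background on all 12 arrays and 13 without both arrays of control replicate 1 (19 to 26 with single arrays left out), and the median of -1.85 became -1.07 with normexp and -1.06 with that filter (-2.20 to -1.60). In knockout cells the 15 calls became 23 with normexp, 9 without a filter, 6 with probes above background on all 12 arrays and 8 on slide 1 alone (10 to 17 with single arrays left out), and the median of -1.17 became -0.32 with that filter (-1.23 to -0.94). The interaction's 0 calls became 1 with quantile normalization, 1 with scaling on the array median, 4 with the percentile over detected spots, 2 with normexp, 1 with probes above background on all 12 arrays, 1 with slide as a block, 5 with trend and robust fitting and 1 with array weights (0 to 1 with single arrays left out). Its median of 1.11 became 0.31 with normexp and turned to -0.19 with probes above background on all 12 arrays, a filter that leaves fewer members (0.73 to 1.21 with single arrays left out). Other causes were not tested. With the replicate number as a block the counts were 1, 18, 26, 17 and 0 for resting, stimulated, both stimulation comparisons and the interaction. It added 3 calls to stimulation in control cells. To stimulation in knockout cells it added 2 (Fcgr4, adjusted p = 0.0153, and Marco, adjusted p = 0.0375), where same-numbered samples deviated together less. It changed no other call of a member. The number of members above background on all stimulated control arrays, 9, was 16 when 2 arrays sufficed and 21 by the scanner software's milder flag. Low signal over background in stimulated control cells limits the folds there.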
